A study of Homo sapiens with 12 samples.

Results

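The comparison of compound 1 with its solvent control covered 27126 genes in MDA-MB-231 cells, of 27146 genes in at least 1 of the 3 comparisons deposited for the study. The members are all genes of the compound 1 comparison, and 11971 of them had a mean normalized count of at least 50 over the compared libraries. These 11971 genes are called well measured below. The response was weak: no gene passed the authors' DESeq2 test, and the shifts described are small displacements of whole gene groups and the genes that stand furthest out.

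MDA-MB-231 is an established human triple-negative breast cancer line, and every group was of these cells grown in the same medium. The 4 groups were Ctrl, which received DMSO, and cells given 2.5 µM of SAHA, compound 1 or a6, each harvested after 48 h, with 3 libraries of total RNA in each group. The submitters class SAHA and compound 1 as compounds with a single target and a6 as one with a pair of targets, and the title of the series names histone deacetylases (HDACs) and G-quadruplexes (G4) as those targets. SAHA is the HDAC inhibitor vorinostat. The target of compound 1 is not named in the labels. A G-quadruplex is a 4-stranded fold of DNA or RNA built from runs of guanine, found in many promoters and at telomeres. Each library is titled a biorep, with nothing on separate cultures, so p-values measure the spread between these libraries, which may be technical. The comparison answers what compound 1 alone did to the transcriptome at the dose and time used for the others.

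Only values per comparison were used, so every value below is a mean over libraries with its standard error. How deeply each library was sequenced is unknown. Group levels for Ctrl and compound 1 were derived from each gene's mean and fold change in the authors' deposited table. The same Ctrl levels computed from the SAHA and a6 tables differed from these by a median of 0.00 and -0.03 on the log2 scale over the 11971 well-measured genes. Intervals are 95% intervals from that error. A value written as a ± b is a log2 fold change and its deposited standard error.

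Markers of the line were present in the authors' deposited table, with mean normalized counts of 20315 for VIM, 20436 for AXL, 8129 for CD44 and 2768 for EGFR. The receptors whose absence defines the triple-negative class were near 0 for ESR1 at 0.489 and PGR at 0.317, while ERBB2 was at 2088 in the authors' deposited table. Of 14 luminal markers 7 were well measured, among them ERBB2 and the keratins KRT8, KRT18 and KRT19. Of 20 haematopoietic markers 3 were well measured, and PTPRC, CD3E, MS4A1 and SPI1 had no row in the table.

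Some background on the pathways helps to read the groups. ATF4 is a transcription factor whose translation increases when the kinases PERK, GCN2, HRI or PKR phosphorylate the initiation factor eIF2, and it raises genes for amino acid import, amino acid synthesis, tRNA charging and feedback on the stress itself. NF-kB is a dimeric transcription factor held in the cytoplasm by IkB proteins, and on release it raises cytokines, chemokines and its own inhibitors. MDA-MB-231 cells are known for constitutive NF-kB activity and secreted cytokines.

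Both factors bind short promoter sequences, and a search of the 250 bases before to 50 bases after each gene's start is shown first because the genes that stand highest come from these pathways. The sequences are from RefSeq on GRCh38.p14, and 8874 well-measured genes had one. The C/EBP-ATF response element was searched as TGATGNAA and the NF-kB element as GGGNNTTTCC, on both strands. The first occurred in 2.49% and the second in 2.86% of these promoters. No match of the first overlapped a match of another motif searched, and 9 genes had an NF-kB match that overlapped a G4 motif. The promoters of 4 genes of the ATF4 pathway are printed with 30 bases on each side of the match, or fewer at an end of the window, with the match in capitals. They are CEBPG at chr19:33374041-33374108, JDP2 at chr14:75427976-75428021 and GARS1 at chr7:30594815-30594877 on the plus strand, and AARS1 at chr16:70289656-70289723 on the minus strand.
CEBPG: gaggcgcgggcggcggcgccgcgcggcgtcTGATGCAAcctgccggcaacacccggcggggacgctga
JDP2: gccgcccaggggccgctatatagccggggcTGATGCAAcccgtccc
GARS1: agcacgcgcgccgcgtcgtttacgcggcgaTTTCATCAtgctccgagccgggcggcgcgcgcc
AARS1: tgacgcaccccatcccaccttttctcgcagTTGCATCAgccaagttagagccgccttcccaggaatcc
The match reads forward in CEBPG and JDP2 and on the opposite strand in GARS1 and AARS1. Among the members of 3 lists of the ATF4 pathway with a promoter sequence, 3 of 13 response factors (ATF3, CEBPG and JDP2), 5 of 12 amino acid genes and 7 of 16 tRNA synthetases held the element. The same search for NF-kB is shown with CXCL1 at chr4:73869284-73869353 and IL6 at chr7:22727097-22727166 on the plus strand, and CXCL3 at chr4:74038729-74038798 and NFKBIA at chr14:35404791-35404860 on the minus strand.
CXCL1: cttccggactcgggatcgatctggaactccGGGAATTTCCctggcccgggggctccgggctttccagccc
CXCL3: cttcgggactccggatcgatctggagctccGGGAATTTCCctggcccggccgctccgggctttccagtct
IL6: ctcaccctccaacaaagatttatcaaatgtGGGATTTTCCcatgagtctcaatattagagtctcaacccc
NFKBIA: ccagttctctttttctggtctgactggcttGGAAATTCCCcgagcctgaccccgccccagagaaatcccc
CXCL1 and CXCL3 are related chemokine genes on chromosome 4, and their matches stand at the same distance from the start, 79 to 70 bases before it. The element occurred in 8 of 17 NF-kB subunits and feedback genes, 2 of 9 cytokines (IL6 and IL32) and 2 of 3 chemokines. A match is a description of the letters and not a site shown to be used.

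With an adjusted p threshold of 0.05, the DESeq2 Wald test of the authors called no gene (0 of 27126, 0%), and the adjusted p of every gene was 1.00 in the authors' deposited table. At an unadjusted p under 0.05 there were 54 genes (0.199%), 29 higher (0.107%) and 25 lower (0.0922%), against 1356 that the threshold would pass among unchanged genes with a correct standard error. The smallest unadjusted p was 0.00173. Of the well-measured genes 9 had an unadjusted p under 0.05 (0.0752%). That share is the background for counts of list members at this threshold below, and a count of 0 in a list is near it. The standard deviation of the Wald statistic, the fold change over its standard error, was 0.516 over the well-measured genes, where unchanged groups should give 1. Over the same genes it was 1.57 for SAHA and 1.11 for a6, with median standard errors of 0.303 for compound 1, 0.318 for SAHA and 0.276 for a6. The plot of the Wald statistic shows how narrow the distribution was.

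**Figure D1:**
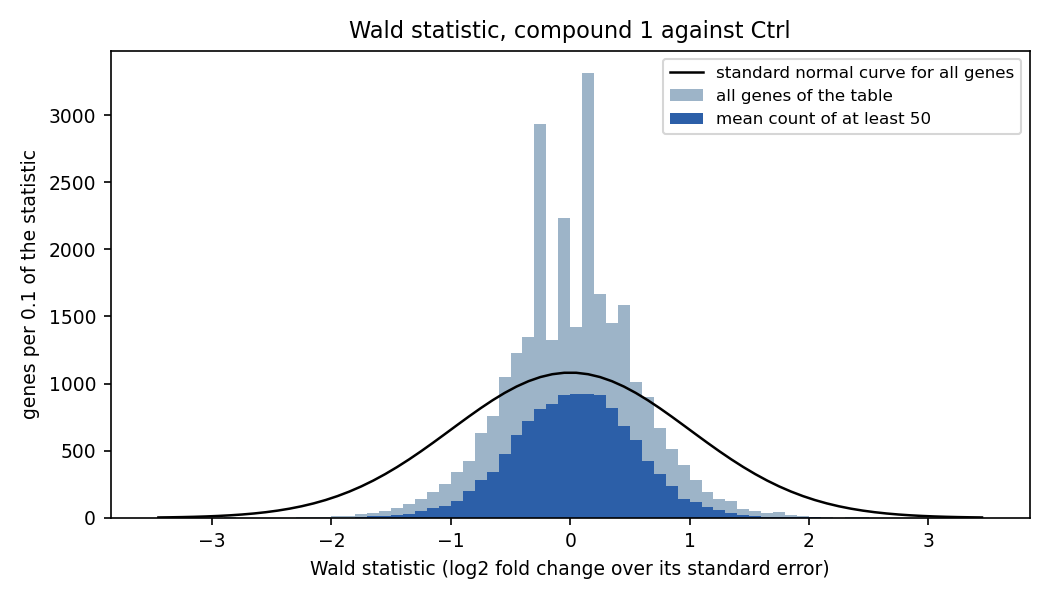
Number of genes (vertical axis) per 0.1 of the Wald statistic (horizontal axis) for compound 1 against Ctrl, for all 27126 genes and for the 11971 well-measured genes, with the standard normal curve scaled to all genes. The bars for all genes stand above the curve from -0.6 to 0.7 and below it further out on both sides. The isolated tall bars hold genes of very low count that share the same few values.

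The size of the changes was bounded for many genes. The median log2 fold change of the well-measured genes was 0.01, the middle 50% lay between -0.09 and 0.12, and the middle 95% between -0.31 and 0.37 in the authors' deposited table. The interval lay within 1 log2 unit of 0 either way for 9912 genes (82.8%) and within 0.5 for 1616 (13.5%). Of the 11971 genes 6343 lay above 0 (53%), which is the background for every count of members above 0 below. That share depended on GC content, from 72.2% in the lowest to 27.8% in the highest of 5 bins, as described below. An absolute log2 fold change over 0.5 was reached by 148 genes (1.24%), 98 higher and 50 lower. Of the 98 higher genes 9 were ATF4 and PERK response factors and 8 were cytokines or growth factors. The 50 lower genes held 2 hypoxia targets (NDRG1 and CA9) and 1 member each of the cholesterol, glycolysis, mitochondrial and translation factor lists.

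Beyond 1 log2 unit there were 7 well-measured genes, and all 7 were higher with compound 1: IL1A, GDF15, CSF3, CSF2, IL1B, SESN2 and TRIB3. The 4 cytokines IL1A, IL1B, CSF2 and CSF3 belong to the NF-kB list, and GDF15, SESN2 and TRIB3 to the ATF4 list. Only the interval of SESN2 lay wholly above 0. The plot of fold change against mean count labels these 7 genes. Others lay just under 1, among them KDR at 0.98 and CXCL8 at 0.96.

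**Figure D2:**
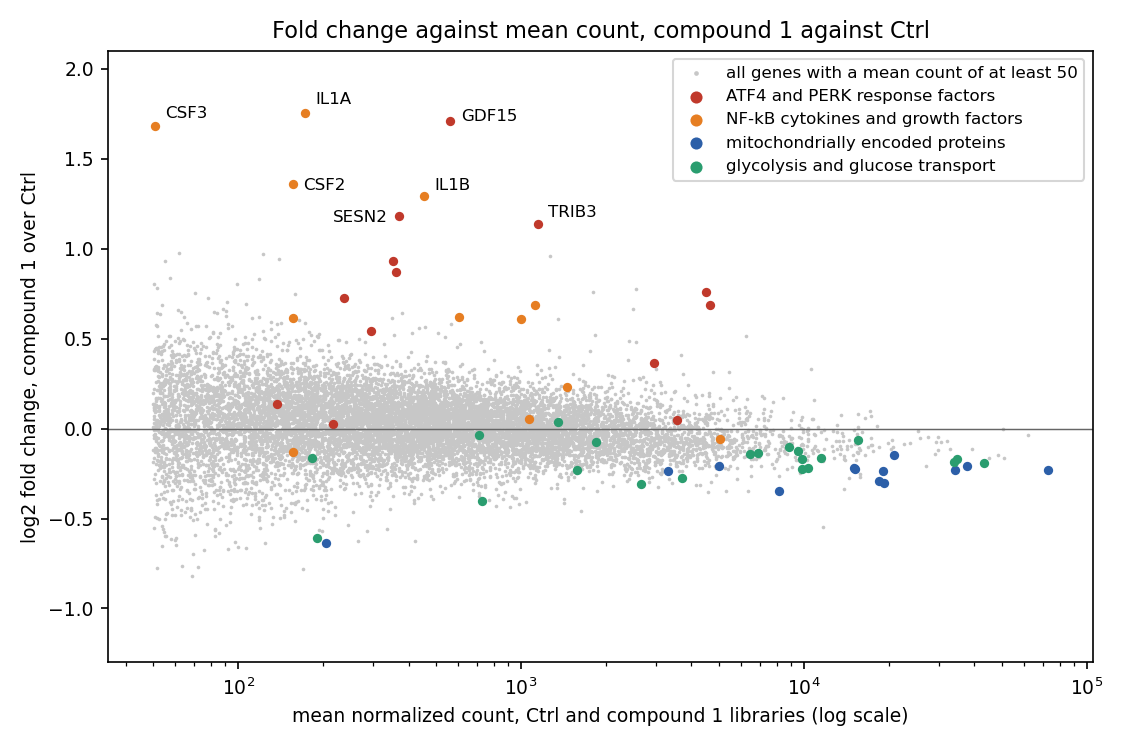
Log2 fold change of compound 1 over Ctrl (vertical axis) against the mean normalized count (horizontal axis, log scale) for the 11971 well-measured genes, with members of 4 lists in colour. The 7 labelled genes lie above 1, and the 13 mitochondrially encoded proteins and 20 of 21 glycolysis genes lie below 0.

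ATF4 and PERK response factors had the highest median of the lists, with 13 of 13 well-measured members above 0 and a median log2 fold change of 0.73, against 53% and 0.01 over all well-measured genes. The lowest member was at 0.02, and 12 of 13 lay above 0 with the trend on GC content removed. Of 18 listed members 16 were in the table, and the 3 others in it had mean counts under 50 (NUPR1, STC2 and FGF21). No member passed the adjusted test, 2 had an unadjusted p under 0.05 (CEBPG and SESN2), and 9 lay over 0.5. Over all well-measured genes 0.0752% had such a p and 1.24% lay over 0.5 in absolute value. CEBPG encodes a leucine zipper partner of ATF4. The gene spans 33373330 to 33382686 of chromosome 19 (GRCh38), with a level of 256 in Ctrl and 468 with compound 1, computed from the authors' deposited table. Its log2 fold change was 0.87 ± 0.36, with an interval from 0.17 to 1.58 (DESeq2 Wald test, unadjusted p = 0.0153, adjusted p = 1.00). SESN2, sestrin 2, an ATF4 target that restrains mTORC1, was at 227 in Ctrl and 514 with compound 1, a log2 fold change of 1.18 ± 0.58 in the authors' deposited table (unadjusted p = 0.0407, adjusted p = 1.00). TRIB3, a pseudokinase that feeds back on ATF4, was at 715 in Ctrl and 1574 with compound 1, or 1.14 ± 0.63 in the authors' deposited table.

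The intervals of TRIB3 and of the members after it reached below 0. GDF15, a secreted stress cytokine, was at 263 in Ctrl and 861 with compound 1, or 1.71 ± 1.54 in the authors' deposited table. ATF3, a transcription factor downstream of ATF4, was at 242 and 462, or 0.93 ± 0.68 in the authors' deposited table. DDIT4, an mTORC1 inhibitor also known as REDD1, was at 3355 and 5674, or 0.76 ± 0.65 in the authors' deposited table. CTH, which makes cysteine from cystathionine, was at 0.73 ± 0.51, and PPP1R15A (GADD34), which directs the dephosphorylation of eIF2, at 0.69 ± 0.57 in the authors' deposited table. ATF4 mRNA itself was at 2574 in Ctrl and 3313 with compound 1, or 0.36 ± 0.34 in the authors' deposited table. ATF4 is controlled largely at translation, which RNA-seq does not measure. Among the lowest members were KLHL24 at 0.13 ± 0.49 and CEBPB at 0.05 ± 0.60 in the authors' deposited table.

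**Figure D3:**
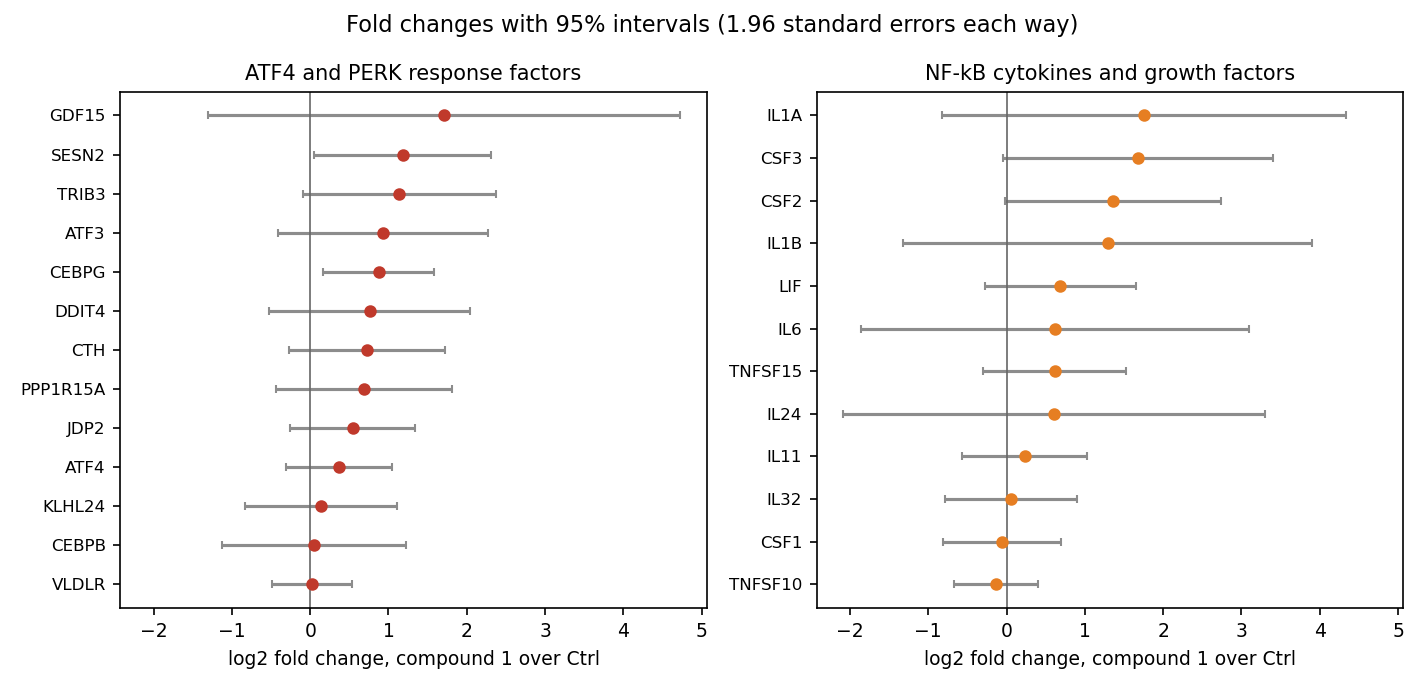
Log2 fold change of compound 1 over Ctrl (horizontal axis) for the well-measured members of the ATF4 and PERK list (left, 13 genes) and the cytokine list (right, 12 genes). Points are deposited estimates and bars are 95% intervals, which lie wholly above 0 for CEBPG and SESN2 and include 0 for the other members.

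Most genes for amino acid supply and tRNA charging, which ATF4 is known to raise, lay above 0 with smaller values. The activity of ATF4 was not measured. Of 17 well-measured amino acid synthesis, transport and one-carbon genes 15 lay above 0, with a median of 0.22 and 0 members at an unadjusted p under 0.05. The neutral amino acid transporter SLC38A2 was at 1073 in Ctrl and 1634 with compound 1, or 0.61 ± 0.32 in the authors' deposited table (unadjusted p = 0.0566). SLC7A5, the light chain of the leucine transporter LAT1, was at 0.33 ± 0.20, and its heavy chain SLC3A2 at 0.32 ± 0.27 in the authors' deposited table. GPT2, a mitochondrial alanine transaminase, was at 0.43 ± 0.26 in the authors' deposited table. The serine synthesis enzyme PSAT1 was at 0.35 ± 0.22, while PHGDH, the first enzyme of that pathway, was at 0.05 ± 0.50 in the authors' deposited table. The proline enzymes ALDH18A1 and PYCR1 were the 2 members below 0, both at -0.06 in the authors' deposited table. ASNS, asparagine synthetase, had a mean count of 33.8 and was not among the 17.

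Of the 20 cytosolic tRNA synthetase genes, which load amino acids onto tRNAs, 17 lay above 0 with a median of 0.24. Their values were close together, from -0.18 for QARS1 to 0.41 for AARS1 in the authors' deposited table, and 0 had an unadjusted p under 0.05. GARS1, whose promoter is printed above, was at 2255 in Ctrl and 2715 with compound 1, or 0.27 ± 0.19 in the authors' deposited table. TARS1 was at 0.38 ± 0.34 and LARS1 at 0.28 ± 0.26 in the authors' deposited table. The 7 synthetase genes with the C/EBP-ATF element had a median of 0.29 and the 9 without it 0.12. The order was the other way in the amino acid list, with 0.22 for the 5 genes with the element and 0.26 for those without it. In the ATF4 and PERK list it was 0.87 for the 3 with it and 0.71 for the others. None of these differences was tested. Over all 221 well-measured genes with the element the median was 0.06, and 0.01 over those without it.

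The other arms of the unfolded protein response did not show such values. Of 27 well-measured ER chaperones and ATF6 or XBP1 targets 16 lay above 0, with a median of 0.07. HERPUD1, a part of ER-associated degradation that ATF4 also raises, was their highest at 0.58 ± 0.45 in the authors' deposited table. The ER chaperones HSPA5 (BiP) and HSP90B1 were at 0.16 ± 0.22 and 0.01 ± 0.23 in the authors' deposited table. Heat shock chaperones had 8 of 16 members above 0 and a median of 0.01, and NRF2 targets 8 of 20 and -0.04. Of 12119 genes that were well measured in the SAHA table and present in the a6 table, 4 had no row in the compound 1 table, CHAC1, CXCL2, DDIT3 and EGR1. CHAC1 and DDIT3 (CHOP) are members of the ATF4 list, CXCL2 of the chemokine list and EGR1 of the immediate early list, and their levels with compound 1 were not analysed here.

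NF-kB cytokines and growth factors had 10 of 12 well-measured members above 0 and a median of 0.62, next among the lists with at least 5 well-measured members. None had an unadjusted p under 0.05, and 8 lay over 0.5, against 0.0752% and 1.24% (in absolute value) of all well-measured genes. CSF3 (G-CSF) was at 24.2 in Ctrl and 77.4 with compound 1, or 1.68 ± 0.88 in the authors' deposited table (DESeq2 Wald test, unadjusted p = 0.0565). It passed the mean count limit only through compound 1, and the counts and median of this list include it. CSF2 (GM-CSF) was at 87.7 and 225, or 1.36 ± 0.70 in the authors' deposited table (unadjusted p = 0.0529). The interleukin 1 genes IL1A and IL1B were at 78.8 and 266 and at 263 and 643, with standard errors of 1.32 and 1.33 on fold changes of 1.76 and 1.29 in the authors' deposited table. LIF, a cytokine of the IL-6 family, was at 0.69 ± 0.49, IL6 at 0.62 ± 1.27 and IL24 at 0.61 ± 1.37 in the authors' deposited table. The members below 0 were CSF1 (M-CSF) at -0.06 ± 0.38 and TNFSF10 (TRAIL) at -0.13 ± 0.27 in the authors' deposited table.

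The 4 well-measured chemokines were CXCL8 at 0.96 ± 1.13, CXCL3 at 0.84 ± 0.63, CXCL1 at 0.52 ± 0.63 and CX3CL1 at -0.16 ± 0.40 in the authors' deposited table. The NF-kB subunits, feedback inhibitors and survival factors had smaller values, 15 of 20 above 0 with a median of 0.13. TRAF1, a receptor adaptor, was highest of them at 0.53 ± 0.46 in the authors' deposited table. The inhibitors NFKBIA and NFKBIB were at 0.18 ± 0.25 and 0.27 ± 0.25 in the authors' deposited table. RELA and NFKB2 were at 0.06 ± 0.26 and -0.08 ± 0.46 in the authors' deposited table. Feedback genes with the NF-kB element had a median of 0.15 over 8 genes and those without it 0.06 over the other 9. In the cytokines the order was the other way, with 0.34 for the 2 genes with the element and 0.61 for those without it, and likewise in the chemokines, with 0.68 and 0.96. These differences were not tested either. The adhesion and protease targets had 4 of 5 members above 0 and a median of 0.05.

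The standard errors of these genes were large for their counts. Beside the median standard error of genes of nearest mean count, that of the 13 ATF4 and PERK factors was 1.98 times larger at the median, with 12 of 13 over 1. For the 12 cytokines the ratio was 1.98 with 11 of 12 over 1, for the 4 chemokines 1.87 and for the NF-kB subunits and feedback genes 1.33. For the amino acid genes it was 1.00 and for the tRNA synthetases 1.16. The highest ratio of all well-measured genes was that of GDF15 at 5.67, followed by IL24 at 5.37, IL6 at 5.07, TXNIP at 4.75, IL1B at 4.74, CXCL8 at 4.66 and DUSP1 at 4.64. Large errors of GDF15, IL24, IL6 and TXNIP were not particular to compound 1. They were 1.02, 0.85, 0.86 and 0.98 with SAHA and 1.17, 0.95, 1.14 and 1.03 with a6. The errors of IL1B, CXCL8 and DUSP1 were 2.56, 2.48 and 2.41 times those with SAHA. Against a6 they were 1.49, 1.21 and 1.41 times as large. Of 120 genes with a ratio over 2, 93 lay above 0 (77.5%). Which libraries carried this spread, and its part in the high fold changes, was not tested. For CEBPG the ratio was 1.23, above 1 but below the median of its list.

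**Figure D4:**
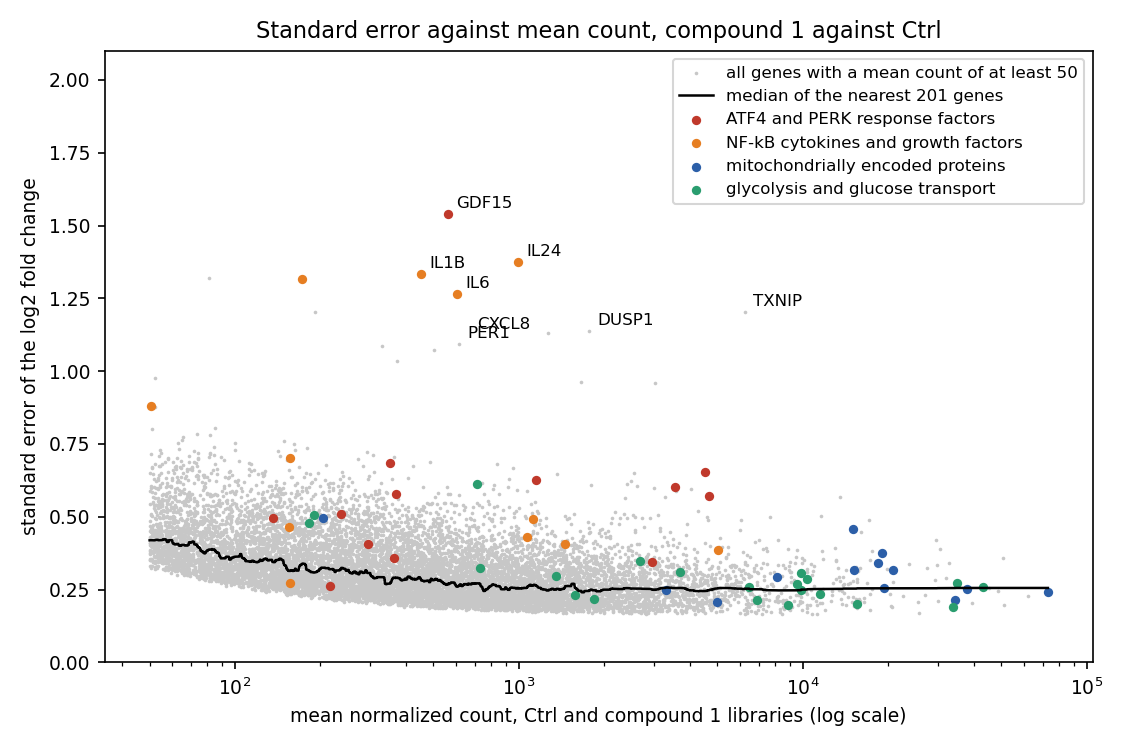
Standard error of the log2 fold change (vertical axis) against the mean normalized count (horizontal axis, log scale) for the 11971 well-measured genes, with a running median over genes of nearest mean count as a line and 4 lists in colour. The labelled genes are the 8 furthest above the line in ratio, and most cytokines and ATF4 factors lie above it.

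Other lists among the 8 with the highest medians had medians close to that of the NF-kB subunits and feedback genes. The p53 targets had 10 of 17 members above 0 and a median of 0.15, with DDB2, a DNA damage sensor, at 0.24 ± 0.21 and GADD45A at 0.66 ± 0.62 in the authors' deposited table. GADD45A is also known as a stress gene raised by ATF4. CDKN1A (p21) was at 1924 in Ctrl and 2344 with compound 1, or 0.29 ± 0.50 in the authors' deposited table. Ribosome biogenesis processing factors had 38 of 49 above 0 and a median of 0.13, with GAR1 and DKC1, parts of the H/ACA RNP, at 0.25 ± 0.22 and 0.22 ± 0.20 in the authors' deposited table. TBL3 was lowest of that list at -0.22 ± 0.32 in the authors' deposited table. The MAPK feedback genes had 15 of 18 above 0 and a median of 0.11, with SPRED2 at 0.15 ± 0.22 and the phosphatase DUSP8 at 0.51 ± 0.63 in the authors' deposited table.

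Of the lists with at least 5 well-measured members, mitochondrially encoded proteins stood lowest, with 0 of 13 above 0 and a median log2 fold change of -0.23. All 13 are core subunits of the respiratory chain and ATP synthase encoded in mitochondrial DNA. The fold changes of 12 of them ranged from -0.35 to -0.15 in the authors' deposited table, and MT-ATP8 was at -0.63 ± 0.50 and levels of 248 in Ctrl and 160 with compound 1. MT-ND6, the only one encoded on the light strand, was at -0.35 ± 0.29, from 9106 to 7148 in the authors' deposited table. MT-CO1, the most abundant gene, was at 78662 in Ctrl and 67113 with compound 1, or -0.23 ± 0.24 in the authors' deposited table. MT-ND5 was at -0.30 ± 0.26, MT-ATP6 at -0.29 ± 0.34, MT-ND2 at -0.24 ± 0.38 and MT-ND4L at -0.24 ± 0.25 in the authors' deposited table. MT-CO2 was at -0.23 ± 0.21, MT-ND1 at -0.22 ± 0.32, MT-CYB at -0.22 ± 0.46 and MT-CO3 at -0.15 ± 0.32 in the authors' deposited table. MT-ND4 and MT-ND3 were at -0.21 ± 0.25 and -0.21 ± 0.21 in the authors' deposited table. Every interval included 0. The mitochondrial rRNAs MT-RNR1 and MT-RNR2 were at -0.04 ± 0.39 and 0.00 ± 0.36 in the authors' deposited table. All 13 genes are transcribed within a pair of long precursors, so their values are not independent. MT-ATP8 and MT-ATP6 also overlap in position, as do MT-ND4L and MT-ND4. RNA quality was not tested. In bulk RNA fewer cells of a kind and less RNA per cell cannot be told apart.

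Nuclear genes of the same complexes lay nearer 0. Complex I subunits had 6 of 35 members above 0 and a median of -0.09, from NDUFA3 at -0.33 ± 0.33 to NDUFV3 at 0.11 ± 0.20 in the authors' deposited table. The nuclear ATP synthase subunits had 2 of 15 above 0 and a median of -0.10, with ATP5F1D lowest at -0.25 ± 0.35 in the authors' deposited table. Complexes II to IV had 7 of 23 and -0.04. The factors that transcribe and translate mitochondrial DNA had 9 of 16 above 0 and a median of 0.02, and mitochondrial ribosomal proteins 16 of 36 and -0.01.

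Glycolysis enzymes and glucose transporters had 1 of 21 members above 0 and a median of -0.17. ALDOC, an aldolase, was at 230 in Ctrl and 151 with compound 1, or -0.61 ± 0.51 in the authors' deposited table. PFKFB4, which makes the activator of phosphofructokinase, was at 829 and 628, or -0.40 ± 0.32 in the authors' deposited table. HK2, hexokinase 2, was at -0.23 ± 0.23 in the authors' deposited table. Abundant enzymes lay in the same range, GAPDH at -0.17 ± 0.27, PKM at -0.19 ± 0.19 and ENO1 at -0.19 ± 0.26 in the authors' deposited table. PFKM, at 0.04 ± 0.30, was the member above 0 in the authors' deposited table. Other hypoxia targets had 9 of 24 above 0 and a median of -0.06, and they were spread more widely, from CA9 at -0.63 ± 0.50 and NDRG1 at -0.55 ± 0.50 to ANGPTL4 at 0.94 ± 0.62 in the authors' deposited table.

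Cholesterol synthesis and SREBP2 target genes had 4 of 26 above 0 and a median of -0.13. SREBP2 is the membrane-bound factor that raises these genes when ER cholesterol is low. INSIG1, which retains it in the ER, was at 1124 in Ctrl and 841 with compound 1, or -0.42 ± 0.40 in the authors' deposited table. SQLE, squalene epoxidase, was at 266 and 211, or -0.33 ± 0.24 in the authors' deposited table. CYP51A1, lanosterol demethylase, was above 0 at 0.42 ± 0.41 in the authors' deposited table. Its Ctrl level of 45.8 was under 50, so it passed the mean count limit only through compound 1. SREBF2, the gene of SREBP2, was at -0.19 ± 0.28 in the authors' deposited table. It was the list's member, of 19 with a promoter sequence, that held the sterol element, searched as ATCACNCCAC and present in 0.158% of promoters. The match stands in capitals at chr22:41832941-41833010 on the plus strand.
SREBF2: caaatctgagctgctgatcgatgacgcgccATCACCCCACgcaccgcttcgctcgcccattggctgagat
Fatty acid synthesis genes had 9 of 16 above 0 and a median of 0.05.

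Cytosolic ribosomal proteins had 8 of 77 above 0 and a median of -0.10. The lowest was RPS21 at -0.25 ± 0.34 in the authors' deposited table. Ribosomal protein genes have many processed copies, so reads may be split among them. Class I antigen presentation genes had 3 of 16 above 0 and a median of -0.08, with NLRC5, their transcriptional activator, at -0.34 ± 0.24 in the authors' deposited table. The 5 well-measured replication-dependent histone genes, of 37 listed, had 0 above 0 and a median of -0.11. The 3 well-measured haematopoietic markers (CSF1R, HLA-DRA and CD74) had 0 above 0 and a median of -0.27. Among the lists with at least 5 well-measured members, the 16 with the highest and lowest medians are shown in the plot of gene lists.

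**Figure D5:**
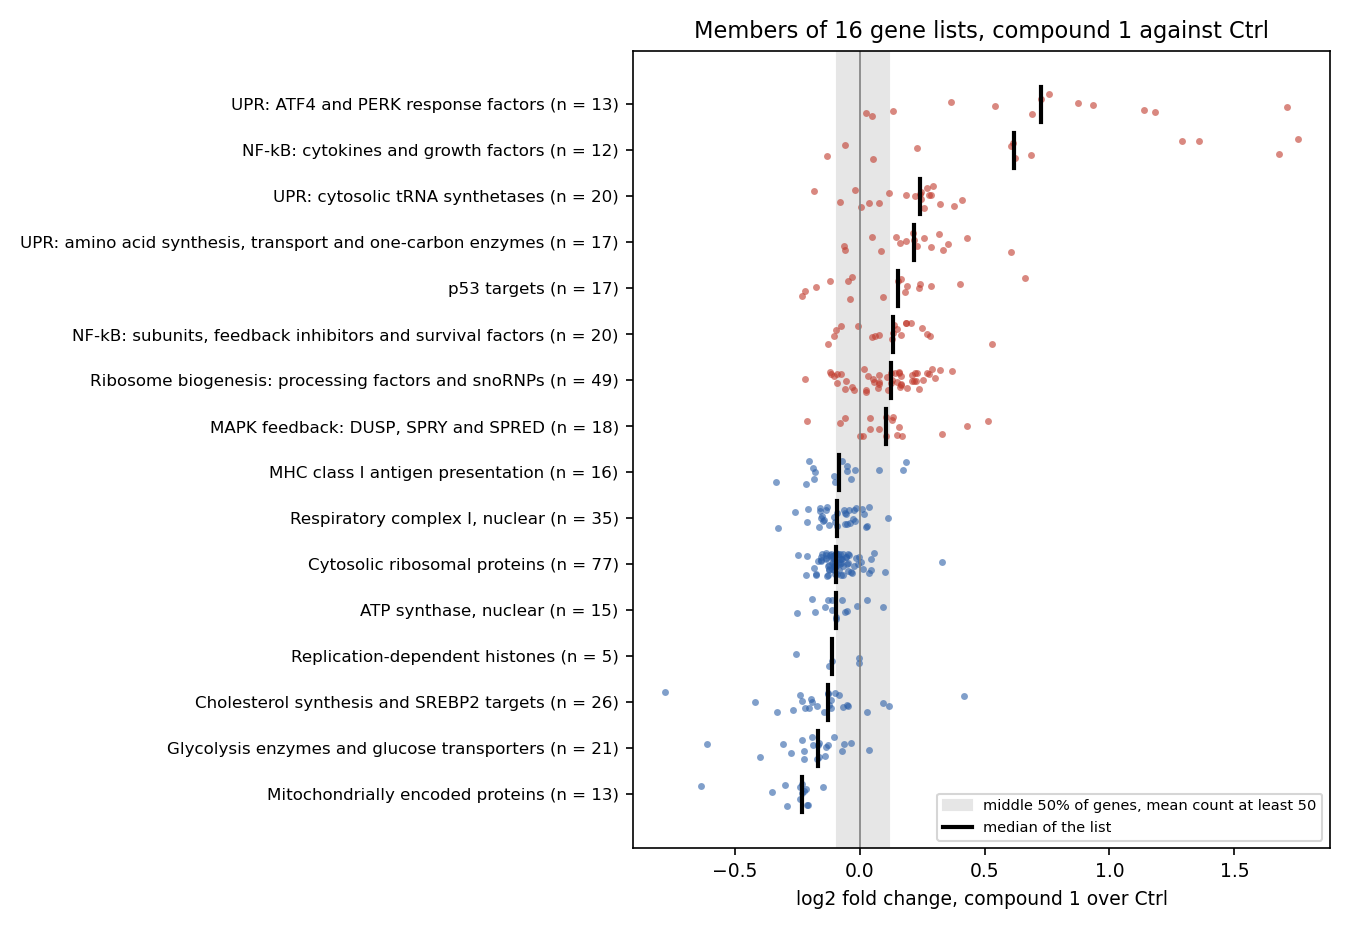
Log2 fold change of compound 1 over Ctrl (horizontal axis) of each well-measured member of the 8 lists with the highest and the 8 with the lowest medians among lists with at least 5 such members. Points are genes, vertical bars are list medians and the grey band is the middle 50% of all well-measured genes, from -0.09 to 0.12, and the ATF4 and cytokine lists have the widest spread.

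Fold changes also followed GC content. In 5 bins of equal size by transcript GC content, the median log2 fold change was 0.09, 0.07, 0.02, -0.03 and -0.08 from the lowest to the highest. The share above 0 went from 72.2% to 27.8%. By transcript length the medians went from -0.03 in the bin of shortest transcripts to 0.06 in the longest. With the trend on GC content removed the list medians were 0.75 for the ATF4 factors, 0.56 for cytokines, 0.20 for amino acid genes and 0.19 for tRNA synthetases. They were -0.29 for mitochondrially encoded proteins, -0.13 for both glycolysis and cholesterol genes, -0.12 for ribosomal proteins and -0.04 for antigen presentation. The medians of p53 targets and MAPK feedback genes became 0.07 each. Members above 0 were then 12 of 13 ATF4 factors, 11 of 12 cytokines, 16 of 17 amino acid genes and 15 of 20 tRNA synthetases. Among the lower lists they were 0 of 13 mitochondrially encoded proteins, 1 of 21 glycolysis, 5 of 26 cholesterol, 5 of 77 ribosomal protein and 3 of 16 antigen presentation genes. Of the G4 helicases and binding proteins 13 of 34 lay above 0, in place of 20. The part of GC content in these results beyond that removal was not tested.

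Single genes that stood out by their Wald statistic were few. Among well-measured genes ADAMTS9, a secreted protease at chromosome 3, 64515654 to 64688000, had the highest statistic, with levels of 72.2 in Ctrl and 126 with compound 1, or 0.80 ± 0.32 in the authors' deposited table (unadjusted p = 0.0122). After CEBPG came KDR, the VEGF receptor 2, at 41.6 in Ctrl and 81.8 with compound 1, or 0.98 ± 0.45 in the authors' deposited table (unadjusted p = 0.0308). KDR is also a marker of endothelial cells, and of the defining markers of that type CDH5 was at a mean count of 0.336 and TEK at 0.459. BABAM2, a subunit of the BRCA1-A and BRISC complexes, was at 0.51 ± 0.24 in the authors' deposited table (unadjusted p = 0.0379). VPS33A, a vesicle tethering protein, was at 0.53 ± 0.27 and TMEM268 at 0.58 ± 0.30 in the authors' deposited table. Cingulin (CGN), of tight junctions, was at 0.69 ± 0.36 and RHOU, a small GTPase, at 0.69 ± 0.36 in the authors' deposited table. The Ctrl levels of KDR and RHOU, 41.6 and 41.2, were under 50, so both passed the mean count limit only through compound 1. CEBPG, BABAM2 and TMEM268 were the 3 of 9 high genes with a promoter sequence that held the C/EBP-ATF element. With SAHA, KDR was at 1.56, BABAM2 at 1.19 and CGN at 3.44, each with an adjusted p under 0.05 (DESeq2 Wald test). CGN, at 2.33, also passed with a6. The other genes named in this paragraph as high did not pass with SAHA or a6.

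On the lower side TRIM69, a ubiquitin ligase at chromosome 15, 44728988 to 44767829, was at 118 in Ctrl and 76.5 with compound 1, or -0.63 ± 0.29 in the authors' deposited table (unadjusted p = 0.0327). BTN3A3, a butyrophilin, was at -0.55 ± 0.28 (unadjusted p = 0.0486) and GGT7 at -0.67 ± 0.35 in the authors' deposited table. NRROS, TSPAN2, MYORG and NLRP3 were at -0.58, -0.61, -0.45 and -0.45 in the authors' deposited table. NLRP3 is an inflammasome sensor and NRROS a binding partner of latent TGF-beta. SEMA3B, an axon guidance factor with a mean count of 1341, was at -0.33 ± 0.20 in the authors' deposited table. SPATA33, FAM50B and ALDH4A1 were at -0.53, -0.44 and -0.39 in the authors' deposited table. These genes belonged to none of the pathway lists. With SAHA, NRROS was at -1.70 and SEMA3B at -1.01, and SEMA3B was at -1.15 with a6. Each of these values had an adjusted p under 0.05 (DESeq2 Wald test). The other genes of this paragraph did not pass with SAHA or a6.

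Genes tied to G-quadruplexes and HDACs lay near 0. Among genes known for G4 folds in their promoters 13 of 22 lay above 0 with a median of 0.05, and KDR was the one member over 0.5. MYC was at 4326 in Ctrl and 4902 with compound 1, or 0.18 ± 0.49 in the authors' deposited table. BCL2 was at 0.20 ± 0.40, VEGFA at 0.26 ± 0.51 and TERT at -0.28 ± 0.38 in the authors' deposited table. KIT had a mean count of 0.172 and was not well measured. G4 helicases and binding proteins had 20 of 34 above 0 and a median of 0.03, and genes of telomerase and shelterin 11 of 14 and 0.04. HDACs and sirtuins had 8 of 15 above 0 and a median of 0.00.

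A G4 motif, 4 runs of at least 3 guanines with loops of 1 to 7 bases on either strand, occurred in 42.8% of the 8874 promoters. It is shown for KDR at chr4:55125660-55125742 and TERT at chr5:1295095-1295186, both on the minus strand. KDR is the gene of this list furthest above 0, and TERT is the catalytic subunit of telomerase. The capitals mark the motif, which in TERT lies on the opposite strand.
KDR: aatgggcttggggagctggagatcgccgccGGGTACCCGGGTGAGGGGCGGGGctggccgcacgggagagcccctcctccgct
TERT: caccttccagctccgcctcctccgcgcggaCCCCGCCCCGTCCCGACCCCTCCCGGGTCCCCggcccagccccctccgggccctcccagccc
The 3800 genes with the motif had a median log2 fold change of 0.01 and the others 0.02. Within 4 bins of promoter GC content, genes with the motif had medians from 0.00 to 0.01 and genes without it from 0.01 to 0.02. The share above 0 lay between 51.2% and 52.5% with the motif and between 53.3% and 56.8% without it, lower with the motif in each of the 4 bins. This was not tested.

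The authors' deposited lists of changed genes for compound 1 held 23 higher and 20 lower genes, and both match, with 0 exceptions, a 2-fold limit joined to an unadjusted p under 0.05. Most were rare: the median mean count was 6.16 in the higher and 6.19 in the lower list, and SESN2 was the only one of the 43 that was well measured. The deposited lists of G4-related genes named 7 higher and 11 lower genes, of which 7 and 10 were among the genes of the comparison. All 7 higher names and 7 of the lower names were in the lists of changed genes. Of the other lower names MYBL1 was at 0.05 ± 0.48 and MYBBP1A at -0.06 ± 0.22, with mean counts of 332 and 2121, and SPDYE2B at 0.63 ± 1.89 in the authors' deposited table. MYB, a transcription factor of blood progenitors, was at -1.77 ± 0.82 but had a mean count of 7.56 in the authors' deposited table. SEMA3A was at 4.14 ± 1.61 and a mean count of 3.48, and the noncoding LINC00707 at -1.91 ± 0.87 and a mean count of 8.32 in the authors' deposited table.

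Compound 1 and SAHA were given at the same dose and time, and 153 of 18514 genes differed between them at an adjusted p under 0.05 (0.826%), 71 higher and 82 lower with compound 1 (z test of the difference, adjusted over both differences between compounds). All comparisons share the Ctrl libraries. CPA4, a carboxypeptidase, was at -0.11 ± 0.19 for compound 1 and 3.15 ± 0.26 for SAHA, a difference of -3.26 with an interval from -3.89 to -2.64 (adjusted p = 6.64e-20). TFPI2, a protease inhibitor, RGS4, a regulator of G protein signalling, NPPB, a natriuretic peptide, and PSG5 differed by -2.28, -3.16, -3.07 and -2.93. TSPOAP1, SLCO4A1, PHF19 and DMTN, which fell with SAHA in the authors' deposited table, differed by 2.84, 2.98, 1.75 and 2.46. PHF19 is a Polycomb partner and SLCO4A1 an organic anion transporter. In all these genes the value with compound 1 lay between -0.47 and 0.15 in the authors' deposited table.

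Members of the lists that differed from SAHA included CSF3, at 1.68 with compound 1 and -3.35 with SAHA, a difference of 5.03 with an interval from 2.65 to 7.42 (z test, adjusted p = 0.0143). TNFSF15, a TNF family cytokine, was at 0.61 and 3.23, a difference of -2.62 with an interval from -3.76 to -1.47 (z test, adjusted p = 0.00452). TNFAIP2, an NF-kB target, differed by 1.81. The mitosis genes CCNB2, ESPL1, FOXM1 and KIF20A, which fell with SAHA in the authors' deposited table, differed by 1.24, 1.46, 1.32 and 1.60, and the mitosis list had 18 of 36 members above 0 and a median of -0.02 with compound 1. No ATF4 or PERK response factor passed the test of a difference from SAHA or a6, and the intervals were wide. For CEBPG the difference was 0.47, from -0.68 to 1.63, against SAHA and 0.65, from -0.30 to 1.60, against a6. For SESN2 it was 0.51, from -0.89 to 1.90, and 0.48, from -0.81 to 1.77. For TRIB3 it was 0.83, from -0.70 to 2.36, and 0.96, from -0.40 to 2.32.

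Between compound 1 and a6 7 of 15251 genes differed (0.0459%), 6 higher and 1 lower with compound 1. CEMIP, which takes part in hyaluronan breakdown, was at -0.04 with compound 1 and -2.35 with a6, a difference of 2.31 with an interval from 1.47 to 3.16 (z test, adjusted p = 0.000133). The actin-binding protein TAGLN differed by 1.74, the interferon-induced OASL by 1.77, PLAAT4 by 1.83, PI16 by 2.21 and the cytochrome CYP1B1 by 1.60. TRNP1, a nuclear protein, differed by -1.83. In all 7 the value with compound 1 lay between -0.35 and 0.23 in the authors' deposited table.

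The medians of the lists in the 3 comparisons stand side by side here without a test, and the comparisons share Ctrl. For compound 1, SAHA and a6 in turn they were 0.73, 0.22 and 0.00 for the 13 ATF4 and PERK factors. These medians leave out CHAC1 and DDIT3, which have no compound 1 row and were at 1.81 and 1.13 with SAHA and at 1.08 and 0.61 with a6 in the authors' deposited table. The medians were 0.62, -0.45 and -0.18 for the cytokines, 0.24, 0.01 and -0.01 for tRNA synthetases, and 0.22, -0.21 and -0.20 for amino acid genes. For mitochondrially encoded proteins they were -0.23, 0.06 and -0.01, for glycolysis genes -0.17, -0.11 and -0.36, and for cholesterol genes -0.13, 0.00 and -0.18.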

How the data were processed

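RNA of 12 libraries in 4 groups of 3 was measured by RNA-seq. Per the submitters' processing notes cutadapt, DESeq2 and GRCh38 (hg38) were used. Aligner, counter, versions, model and strand: not given in the sources used here. Per the file headers, the authors' deposited tables hold per gene a signal (the normalized count averaged over both groups), the log2 fold change, its error, the Wald score, and p-values before and after adjustment. Columns of values per library used were 0, so depth is unknown. G4 numbers in the deposited G4-related lists refer to a region not stated.

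Recomputing the Wald score and the Benjamini-Hochberg adjustment over the whole table gave the deposited values. Levels in each group were computed from the mean count and fold change for equal groups. Compounds were compared by differences of fold changes with summed squared errors, a two-sided z test and joint adjustment over 2 differences. The shared Ctrl libraries make this error too large. The calculation was run on simulated data with independent errors, which cannot show the effect of shared Ctrl libraries. Symbols were matched to GENCODE 29 for 97.0% of genes.

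Named genes are the 12 highest and 12 lowest Wald statistics with a mean count of at least 50, up to 3 members at each end of the 16 described lists of 56, mitochondrial genes, G4-list genes, 6 set genes and 5 each way per difference. Genes named beyond this rule were chosen after their values were seen. The members, lists and rules were chosen with earlier results of these data known. Some genes the rule takes are not reported here. Alternatives were other gene sets for adjustment, centring, removal of a lowess trend on GC content, rescaling of the statistic and an error correlation of 0.5. Python 3.11.15, pandas 2.3.3, scipy 1.17.1 and statsmodels 0.14.6 were used.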

Additional observations from a re-analysis of the deposited data

How the results depend on the processing

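The count of 0 genes at an adjusted p under 0.05 stayed 0 when adjusted within genes whose mean count reached 50 or 10, centred, or with the GC trend removed. It was 43 in the authors' lists of changed genes, which use unadjusted p-values, and 143 with the statistic divided by its own robust spread of 0.482. The 54 genes at an unadjusted p under 0.05 were 9 at a mean count of at least 50 and 22 at 10. With an error correlation of 0.5 for the shared Ctrl libraries, 794 genes differed from SAHA in place of 153 and 105 from a6 in place of 7. None of the 16 described list medians changed sign under any alternative run. Removing the GC trend turned the sign of 12 of 159 named genes, all without a call. CSF1, PYCR1, MYBBP1A and an ATF4 and PERK response factor were among them. No paired analysis was possible because the files used hold no values per library, and leaving out replicates was not run for the same reason. Depth per library is unknown, so what it limits was not measured. The change behind these values was not traced and the cause was not tested.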
